A study of Mus musculus with 21 samples.

Results

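*H19*, a long noncoding RNA, and 9 further imprinted genes with known roles in growth were followed in heart RNA from mice given doxorubicin, with and without a 4T1 tumor. The genes were taken by symbol from the deposited table of 56691 genes: *H19*, *Igf2*, *Igf2r*, *Dlk1*, *Meg3*, *Cdkn1c*, *Peg3*, *Plagl1*, *Mest* and *Grb10*, 10 in all. They were chosen by name with measured fold changes of the same libraries in all the comparisons below already known, so their levels and fold changes are given as a description. Where the fit across all genes called one of them, that describes the fit and is no independent test of the gene. Of the 10 genes, 8 reached the minimum for the fit across all genes, a mean of 0.5 FPKM (fragments per kilobase of exon, scaled to the library total) over the 21 libraries, and *Igf2* and *Dlk1* did not.

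The Control group held 5 libraries from mice without tumor given normal saline (NS), and the DOX group 5 from mice without tumor given doxorubicin (DOX), an anthracycline chemotherapeutic, by weekly intraperitoneal injection. The Tb group held 6 libraries from mice with subcutaneous tumors of 4T1 cells, a mouse mammary carcinoma line, given NS, and the Tb-DOX group 5 from such mice given DOX. No transgene or deletion is described for any group, and strain, sex and age are not given in the sources used here. Every library carries the tumor cell line as its source in the labels, while the methods of the study describe heart tissue. Summed FPKM of 6 cardiomyocyte markers (*Myh6*, *Tnnt2*, *Actc1*, *Ryr2*, *Tnni3* and *Myl2*) lay between 10100 and 16100 in every library, with none at 0. Their medians were 11200 in Control, 14500 in DOX, 11000 in Tb and 14200 in Tb-DOX. With DOX, edgeR called 2 of the 6 up without tumor, beside 36.2% of all fitted genes called in either direction. With tumor it also called 2 up, beside 4.72%. The part of this difference in medians in the results below was not tested.

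Total counts were 13521200 to 18601445 per library. The libraries correlated with their group at a median r of 0.963 to 0.983 in log2 values, except Tb replicate 5 at 0.933. DOX replicate 4 carried summed thymocyte marker FPKM of 66.8, against 0.12 to 9.88 in the other libraries. Germ cell markers summed to 1.58 to 5.09 FPKM in Control and 0 to 4.76 in Tb-DOX, against at most 0.38 in DOX and 0.19 in Tb. Libraries of a group are not stated to be separate animals in the labels, so the errors below measure the spread between libraries.

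Imprinted genes are transcribed mainly from the maternal or the paternal copy, according to DNA methylation set in the germ line. Many of them act on fetal growth in opposite directions: paternally expressed genes such as *Igf2* tend to promote it, and maternally expressed genes such as *H19*, *Igf2r*, *Cdkn1c* and *Grb10* tend to restrain it. Most are abundant in the fetus and are turned down after birth, in the heart as elsewhere. The counts do not separate the parental copies, so they show total RNA and not the state of the imprint.

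Per unit length, the genes spanned a wide range in these hearts. *Igf2r*, the scavenger receptor that takes IGF2 to the lysosome, was the most abundant at a mean of 19.7 FPKM over all libraries, followed by *Grb10*, an adaptor that restrains insulin and IGF1 receptor signalling, at 14 FPKM. *Cdkn1c*, a cyclin-dependent kinase inhibitor, had 5.8 FPKM, *H19* had 5.56 FPKM, and the zinc finger gene *Peg3* had 4.5 FPKM. Lower levels were found for *Mest* at 1.49 FPKM, *Plagl1* at 1.01 FPKM and the noncoding RNA *Meg3* at 0.641 FPKM. *Igf2*, the fetal growth factor, had 0.0919 FPKM and *Dlk1*, a transmembrane inhibitor of adipocyte differentiation, 0.00381 FPKM. The Control mean of *Plagl1* and the DOX and Tb-DOX means of *Meg3* lay under 0.5 FPKM, so these genes were carried over the minimum by their other groups.

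In what follows, levels of a gene are CPM, counts scaled to library size by the trimmed mean of M values (TMM), and a gene counts as called when its adjusted p was under 0.05 in the edgeR fit over all 13990 genes that reached the minimum. In hearts without tumor, *H19*, *Peg3* and *Plagl1* were higher with DOX than in Control, and *Grb10*, *Mest*, *Meg3* and *Cdkn1c* were lower. Of the 8 fitted genes 7 were called, 3 up and 4 down. This contrast was among the results known when the genes were picked, so nothing is read from that count, beside which 36.2% of all fitted genes were called in either direction. With library totals in place of TMM the share of called genes that rose went from 49.8% to 28.7% and the median over all genes to −0.14 on the log2 scale, and no called gene of the 8 changed direction. In CPM the DOX and Control libraries did not overlap for 5 of the 8 (*H19*, *Peg3*, *Plagl1*, *Mest* and *Grb10*), as for 25.3% of all fitted genes. In tumor-bearing hearts, none of the 8 was called with DOX by edgeR, beside 4.72% of all fitted genes. Of these genes, 2 had an unadjusted p under 0.05, and DESeq2 called 1 and limma 0. In CPM the Tb-DOX and Tb libraries did not overlap for 1 of the 8, *Meg3*, as for 4.96% of all fitted genes. In bulk tissue, fewer cells of a type and less RNA per cell cannot be told apart.

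**Figure D1:**
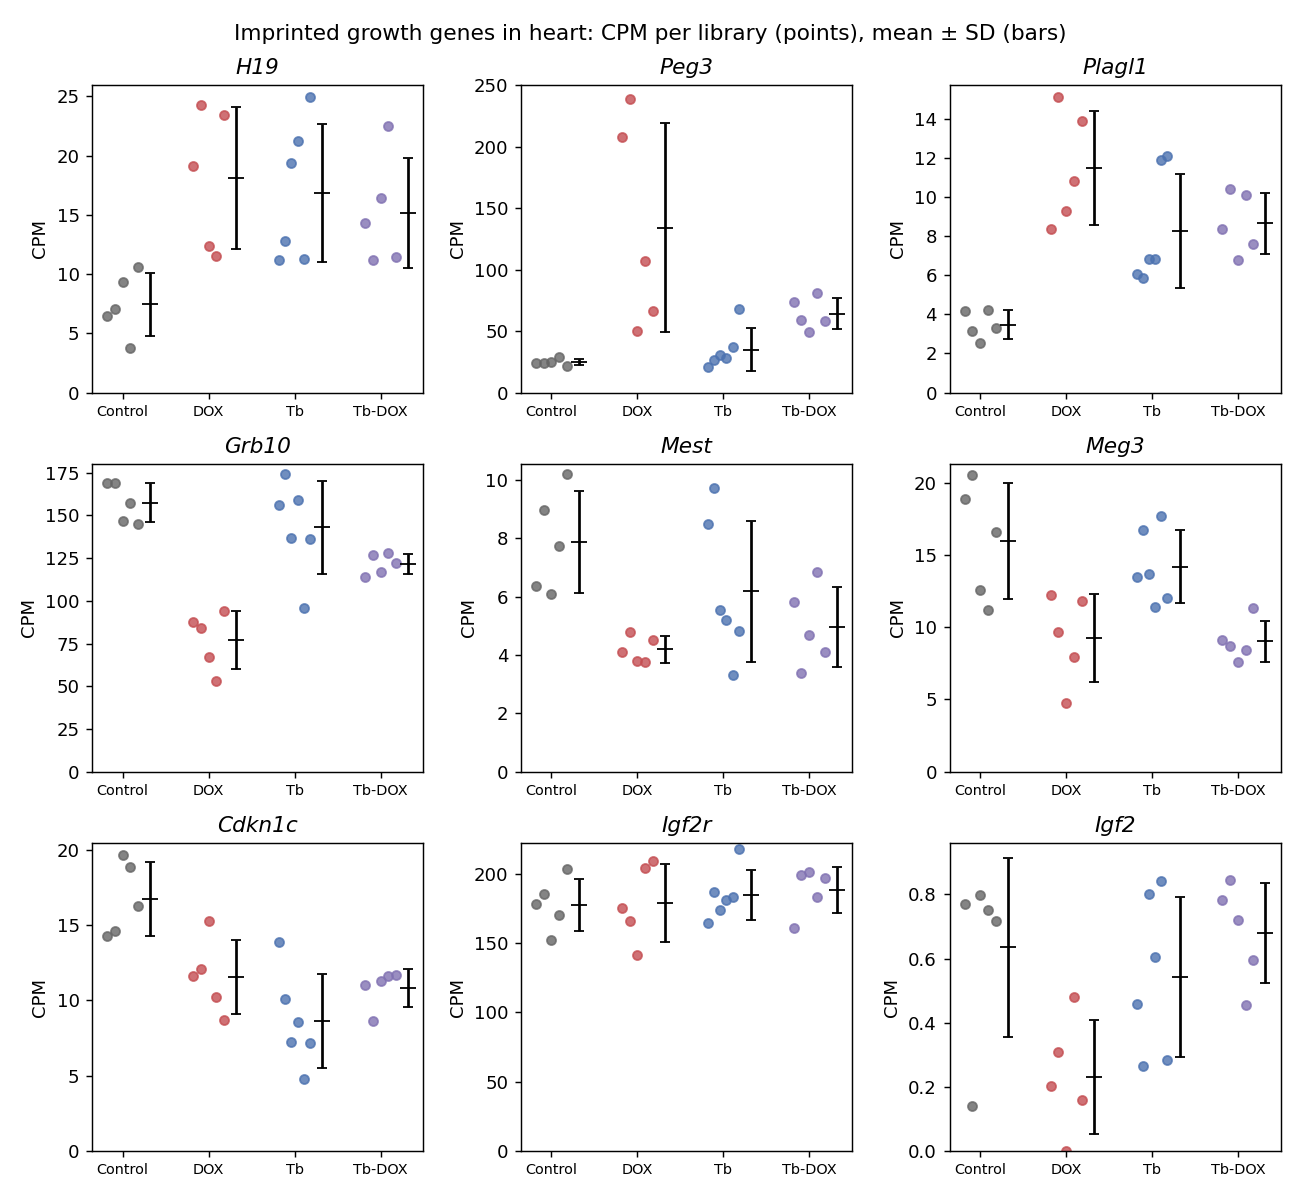
TMM-scaled CPM (vertical axis, linear, starting at 0) of 9 of the 10 genes in each library of Control, DOX, Tb and Tb-DOX (points), with the group mean and SD (bars beside the points). *Dlk1*, with at most 3 counts in any library, is left out; *H19* and *Plagl1* lie lowest in Control, and *Grb10* lies lowest in DOX.

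*H19* is transcribed from chromosome 7, positions 142129262 to 142131886 on the minus strand of GRCm39, 72.6 kb from *Igf2*, with which it shares an imprinting control region and enhancers. *H19* stood at 6.42, 7.03, 9.35, 3.76 and 10.6 CPM in the 5 Control libraries and at 19.1, 24.3, 12.4, 11.5 and 23.4 CPM in the 5 DOX libraries. In Tb it ranged from 11.2 to 24.9 CPM with a median of 16.1, and the Tb-DOX libraries held 14.3, 11.2, 16.4, 22.5 and 11.4 CPM. All libraries with DOX, tumor or both thus lay above all Control libraries in CPM, and the 3 other groups overlapped one another. The gap to Control was narrow: in FPKM, which is not TMM-scaled, the highest Control library (4.07) lay above the lowest DOX library (3.85) and the lowest Tb library (4.01). Group means were 7.43 ± 2.67 CPM (SD, n = 5) in Control, 18.1 ± 5.99 (n = 5) in DOX, 16.8 ± 5.84 (n = 6) in Tb and 15.2 ± 4.67 (n = 5) in Tb-DOX.

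The fitted log2 fold change of *H19* was 1.28 (SE 0.293, 95% interval 0.67 to 1.89) for DOX against Control, a 2.42-fold higher level. For Tb against Control, which shares the Control libraries, it was 1.17 (SE 0.282, 95% interval 0.587 to 1.76), a 2.25-fold higher level. DOX in tumor-bearing hearts left *H19* within the spread of the libraries, at −0.15 (SE 0.271, 95% interval −0.712 to 0.413). The DOX effect with tumor minus that without was −1.43 (SE 0.399, 95% interval −2.25 to −0.6). That difference was no longer called in 7 of the 21 fits that left out a single library, those without Control replicates 1, 2 or 4, DOX replicate 2, or Tb-DOX replicates 1, 2 or 5, at values that over all 21 fits lay between −1.62 and −1.26. It was also not called with library totals, with limma or with the replicate number as a block.

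*H19* also hosts a microRNA, miR-675, within its transcript. Both mature strands are shown because they are the small RNA products of *H19*, with the seed (bases 2 to 8) in capitals; they are RefSeq sequences on GRCm38.p6, minus strand, at chr7:142577112-142577133 for the 5p strand and chr7:142577078-142577099 for the 3p strand.
mmu-miR-675-5p: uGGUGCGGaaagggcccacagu
mmu-miR-675-3p: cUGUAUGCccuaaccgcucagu
The seeds of the strands differ, so they share no seed family. The *Mir675* row of the table held 0 counts in all 21 libraries, which allows up to 0.151 to 0.241 CPM per library at the limit of 3 counts. Oligo(dT) selected mRNA libraries do not measure mature microRNAs, so the row says nothing of their level.

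*Igf2*, across the control region from *H19*, was close to the limit of detection. Its counts were 12, 2, 14, 10 and 11 in the Control libraries, 3, 4, 0, 6 and 2 in DOX, and 14, 14, 10, 8 and 10 in Tb-DOX. In Tb they ranged from 4 to 14. The group sums were 49, 15, 55 and 56 counts in Control, DOX, Tb and Tb-DOX. DOX libraries were the lowest as a group, but Control replicate 2, with 2 counts, lay within their range, and the DOX range overlapped that of Tb. *Igf2os*, which overlaps *Igf2* on the other strand, summed to 9, 16, 6 and 9 counts in the same groups. Whether reads were counted by strand is not stated, so reads of *Igf2* and *Igf2os* cannot be told apart.

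*Igf2r* showed the smallest differences of the 8 fitted genes in every comparison but Tb-DOX against DOX, in which *Meg3* was nearer 0 (−0.039, against 0.074 for *Igf2r*). It held 178, 185, 152, 170 and 203 CPM in Control, 175, 166, 141, 204 and 209 CPM in DOX, and 161, 199, 201, 183 and 197 CPM in Tb-DOX. In Tb the range was 164 to 218 CPM with a median of 182. All groups overlapped. The fitted log2 fold changes were 0.0082 (95% interval −0.213 to 0.229) for DOX against Control and 0.027 (95% interval −0.185 to 0.238) for Tb-DOX against Tb. At this depth the interval for DOX leaves room for a change of up to about 0.23 on the log2 scale in either direction. *Airn*, the antisense noncoding RNA that overlaps *Igf2r*, was not called in either comparison (log2 fold change −0.032, adjusted p = 0.909, and 0.14, adjusted p = 0.707, by edgeR).

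Among the growth restrainers, *Grb10* was lower with DOX and *Cdkn1c* was lowest with tumor. *Grb10* lay at 169, 169, 147, 157 and 145 CPM in Control and at 87.8, 83.9, 67.0, 52.8 and 94.3 CPM in DOX. In Tb it ranged from 96.0 to 174 CPM with a median of 146, and in Tb-DOX it held 114, 127, 117, 128 and 122 CPM. All DOX libraries were below those of every other group, and Tb-DOX lay below Control. Tb-DOX lay within the range of Tb only through Tb replicate 5, at 96.0 CPM, since the other Tb libraries held 136 to 174 CPM. The fit gave −1.03 (SE 0.142) for DOX against Control, a 2.04-fold lower level, and −0.23 (SE 0.134, 95% interval −0.513 to 0.045) for Tb-DOX against Tb. The difference between these effects was 0.80 (SE 0.194), and Tb-DOX against DOX gave 0.66 (SE 0.141). Without Tb replicate 5, *Grb10* in Tb-DOX against Tb was at −0.32 and was not called. It was called there without both DOX replicate 4 and Tb replicate 5.

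*Cdkn1c*, which lies 880 kb from *H19* in the neighbouring imprinted domain of chromosome 7, held 14.3, 14.6, 19.7, 18.9 and 16.3 CPM in Control. It held 11.6, 12.1, 15.3, 10.2 and 8.72 CPM in DOX and 11.0, 8.63, 11.3, 11.6 and 11.7 CPM in Tb-DOX. The Tb libraries ranged from 4.76 to 13.9 CPM with a median of 7.91, all below Control. DOX overlapped Control through DOX replicate 3. The fitted log2 fold change was −0.96 (SE 0.196) for Tb against Control, −0.53 (SE 0.205) for DOX against Control and 0.33 (SE 0.198) for Tb-DOX against Tb. The difference between the DOX effects was 0.86 (SE 0.285, 95% interval 0.272 to 1.45), which edgeR did not call but DESeq2, limma and edgeR with library totals or a minimum of 5 FPKM did, as did edgeR without Tb replicate 1. The call for DOX against Control was fragile: it was kept in 7 of the 21 fits that left out a single library, those without Control replicates 1 or 2, DOX replicate 3, Tb replicates 1, 5 or 6, or Tb-DOX replicate 2, and lost in the other 14, with values between −0.65 and −0.44. It was also lost when no minimum level was set and with the replicate number as a block.

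*Plagl1* encodes a zinc finger transcription factor that inhibits cell growth and binds at other imprinted genes, *H19* and *Igf2* among them. It held 4.18, 3.13, 2.51, 4.21 and 3.32 CPM in Control and 8.36, 15.1, 9.28, 10.8 and 13.9 CPM in DOX. The Tb libraries ranged from 5.88 to 12.1 CPM with a median of 6.84, and the Tb-DOX libraries held 8.38, 10.4, 6.78, 10.1 and 7.62 CPM. As for *H19*, every Control library lay below every library of the other groups, and here this held in FPKM as well for DOX and for Tb against Control. The fit gave 1.73 (SE 0.237) for DOX against Control, a 3.31-fold higher level, 1.26 (SE 0.229) for Tb against Control and 0.062 (SE 0.215, 95% interval −0.384 to 0.509) for Tb-DOX against Tb. The DOX effect with tumor minus that without was −1.67 (SE 0.32), with values between −1.76 and −1.53 in the 21 fits that left out a single library.

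*Peg3*, a paternally expressed zinc finger gene linked to p53-dependent cell death and to growth, showed the largest fitted difference among the 8 genes for DOX against Control. It held 23.8, 24.3, 24.8, 29.1 and 21.7 CPM in Control and 208, 239, 50.0, 107 and 66.4 CPM in DOX. The Tb-DOX libraries held 73.2, 59.1, 49.1, 81.0 and 58.4 CPM, and the Tb libraries 20.4 to 68.2 CPM with a median of 29.1. Every DOX library lay above every Control library, but the DOX libraries were spread widely, with replicates 1 and 2 far above the others, and Tb replicate 6 lay far above the other Tb libraries. The fit gave 2.44 (SE 0.359) for DOX against Control, a 5.42-fold higher level, and 0.88 (SE 0.326, 95% interval 0.199 to 1.55) for Tb-DOX against Tb. Without Tb replicate 6 the latter was 1.18 and was called, as it was with the replicate block. Tb-DOX against DOX gave −1.06 (SE 0.342), with values of −1.27 to −0.74 in the fits without a single library, and the call was lost without DOX replicates 1 or 2 or Tb-DOX replicates 1, 2, 3 or 5, and with library totals, with limma or in the fit of those groups alone. The difference between the DOX effects was −1.56 (SE 0.478), with −1.78 to −1.26 in those fits, and it was called in 8 of 21, being lost without any of the 5 Control replicates, DOX replicates 1, 2 or 4, Tb replicate 6, or Tb-DOX replicates 1, 2, 3 or 5. It was also not called with library totals, with limma or with the replicate block.

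*Mest*, a paternally expressed gene of the hydrolase fold family that marks growing mesodermal tissue, was lower in DOX. It held 6.36, 8.98, 6.10, 7.74 and 10.2 CPM in Control and 4.11, 4.79, 3.78, 3.77 and 4.52 CPM in DOX. In Tb-DOX it held 5.81, 3.38, 4.69, 6.83 and 4.11 CPM, and in Tb 3.31 to 9.72 CPM with a median of 5.36. DOX and Control did not overlap, whereas the tumor-bearing groups overlapped both. The fit gave −0.91 (SE 0.249), a 1.87-fold lower level, for DOX against Control, and −0.31 (SE 0.235) for Tb-DOX against Tb. *Copg2* overlaps *Mest* on the other strand, and its own log2 fold change for DOX against Control was −0.067 (adjusted p = 0.703 by edgeR).

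*Meg3* and *Dlk1* lie 77.6 kb apart on chromosome 12 and are expressed from opposite parental copies, *Meg3* from the maternal and *Dlk1* from the paternal one. *Meg3* held 18.9, 20.5, 12.6, 11.2 and 16.6 CPM in Control and 12.2, 9.66, 4.77, 7.94 and 11.8 CPM in DOX, groups that overlapped. It held 9.11, 8.69, 7.57, 8.42 and 11.3 CPM in Tb-DOX and 11.4 to 17.7 CPM, with a median of 13.6, in Tb, groups that did not overlap. *Meg3* was lower with DOX in both settings, by −0.79 (SE 0.213, 95% interval −1.23 to −0.342) without tumor and −0.65 (SE 0.204, 95% interval −1.07 to −0.226) with tumor, the former called and the latter not. The difference between them was 0.14 (SE 0.293, 95% interval −0.474 to 0.744). The call with tumor was made by DESeq2, in the fit of those groups alone, with the replicate block and without DOX replicate 3. *Dlk1* summed to 1, 1, 4 and 1 counts in Control, DOX, Tb and Tb-DOX, with no library above 3 counts, so no difference was detectable at this depth.

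**Figure D2:**
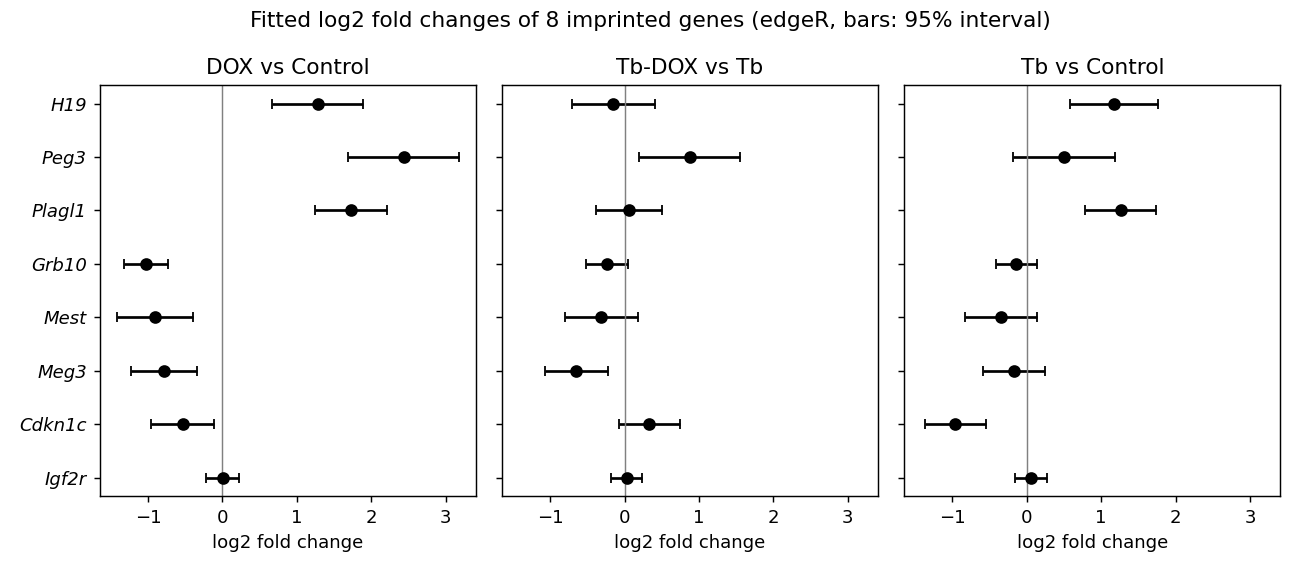
Fitted log2 fold changes (horizontal axis) of the 8 fitted genes, with 95% intervals from edgeR, for DOX against Control, Tb-DOX against Tb and Tb against Control; the first and last share the Control libraries. The points for *H19*, *Peg3* and *Plagl1* lie between 1.28 and 2.44 in the first panel and between −0.15 and 0.88 in the second.

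Of the 8 fitted genes 3 were called in Tb against Control, *H19* and *Plagl1* up and *Cdkn1c* down, where 6.28% of all fitted genes were called. That call of *H19* was lost with the replicate block. The same 3 genes did not overlap between those groups in CPM, as for 6.18% of all fitted genes. *Grb10* (up) and *Peg3* (down) were called in Tb-DOX against DOX, where the share over all fitted genes was 17.5%, and the groups did not overlap for *Grb10*, as for 14.5% of all fitted genes. The differences between the DOX effects were called for *H19*, *Peg3*, *Plagl1* and *Grb10*, where that share was 8.94% (1251 genes). DESeq2 called 5 of the 8, with 2036 calls over all genes. Limma called 3, and edgeR called 3 with library totals and 2 with the replicate block. As above, these contrasts were known when the genes were picked, and the counts describe them only. The median log2 fold change of the 8 genes was −0.26 for DOX against Control, beside 0.0024 over all fitted genes, with 4 values above 0 and 4 below. The median absolute log2 fold change was 0.97 for the 8 genes and 0.35 for all fitted genes in that comparison, and 0.27 against 0.19 for Tb-DOX against Tb.

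Marker RNA of fibroblasts, the main stromal cells of the heart, differed between the groups. Summed FPKM of 6 fibroblast markers (*Pdgfra*, *Tcf21*, *Lum*, *Col1a1*, *Dpt* and *Gsn*) lay at 463 to 564 in Control, 147 to 293 in DOX, 291 to 431 in Tb and 227 to 340 in Tb-DOX, with none of the markers at 0. Of these markers 4 of 6 fell and 1 rose in DOX against Control by edgeR, beside 36.2% of all fitted genes called in either direction. In Tb-DOX against Tb 2 fell, beside 4.72%. The matrix gene *Dcn*, not among the 6, was at 0.30 (adjusted p = 0.0779 by edgeR) in DOX against Control. The part of fibroblast marker RNA in the lower levels of *Grb10*, *Mest*, *Meg3* and *Cdkn1c* was not tested. Skeletal muscle, in which *H19* is abundant, was measured by 6 markers (*Myh4*, *Myh1*, *Myh2*, *Actn3*, *Tnnt3* and *Tnni2*). Their sum was 0.82 to 6.95 FPKM in Control, 2.66 to 6.96 in DOX, 1.02 to 6.46 in Tb and 0.84 to 3.2 in Tb-DOX, with none at 0 in a whole group. The Control maximum was replicate 4, which held the lowest *H19* of all libraries (3.76 CPM), and the other Control libraries lay at 0.82 to 1.64 FPKM. The medians were 1.13, 5.58, 3.06 and 1.96 FPKM in the same order of groups. By median these markers ranked the groups as *H19* did, with Control lowest, then Tb-DOX, Tb and DOX. The *H19* levels of DOX, Tb and Tb-DOX overlapped, so the order among them is uncertain. The part of these markers in the levels of *H19* was not tested. Markers of epicardial or mesothelial cells (*Upk3b*, *Msln*, *Wt1*, *Upk1b*, *Lrrn4* and *Krt19*) summed to 0.93 to 1.35 FPKM in Control and 1.03 to 3.28 FPKM over the other groups.

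Of 17 other fitted genes that start within 1 Mb of *H19*, edgeR and DESeq2 each called 1 and limma 4 in DOX against Control, beside 36.2% of all fitted genes called by edgeR. The gene called by edgeR was *Dusp8*, a MAP kinase phosphatase, which fell (−0.86, SE 0.159, adjusted p = 0.000338 by edgeR), as it did in Tb-DOX against Tb (−0.76, SE 0.152, adjusted p = 0.00691 by edgeR). In Tb against Control 1 was called, beside 6.28% of all fitted genes, and it was *Lsp1*, a leukocyte actin-binding protein, which rose (0.77, SE 0.198, adjusted p = 0.0209 by edgeR). Both names were picked with their values known. The nearest fitted gene was *Mrpl23*, a mitochondrial ribosomal protein gene 34.8 kb away on one side, and on the other side it was *Cd81*, a tetraspanin gene 475 kb away. *Mrpl23* was at 0.047 (SE 0.128, adjusted p = 0.805) and *Cd81* at −0.16 (SE 0.08, adjusted p = 0.116) for DOX against Control by edgeR, and for Tb against Control they were at −0.049 (adjusted p = 0.851) and 0.037 (adjusted p = 0.818). The skeletal muscle troponin genes *Tnnt3* and *Tnni2* lie in the same window and had large errors, with *Tnnt3* at 1.44 (SE 0.672, adjusted p = 0.0972) and *Tnni2* at 0.84 (SE 0.379, adjusted p = 0.0865) for DOX against Control by edgeR. *Tnnt3* was lower in Tb-DOX than in DOX (−2.18, SE 0.696, adjusted p = 0.0342 by edgeR), and *Tnni2* was at −0.34 (adjusted p = 0.549 by edgeR) there.

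**Figure D3:**
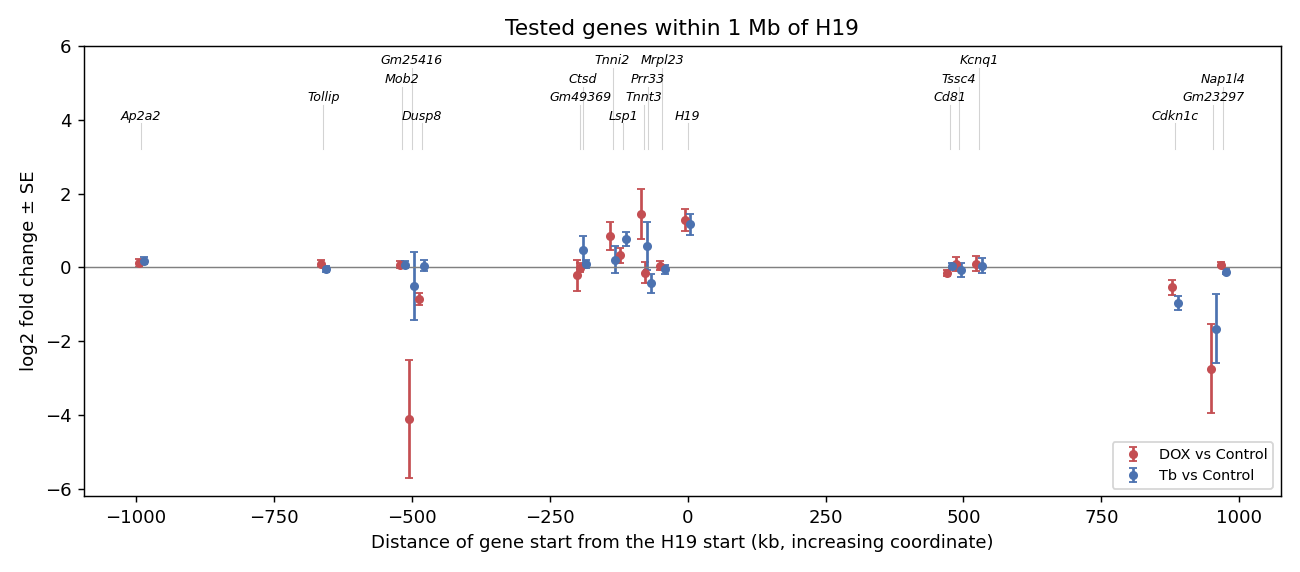
Log2 fold change with SE (vertical axis) of *H19*, *Cdkn1c* and the 17 other fitted genes against the distance of their start from that of *H19* in kb, for DOX against Control and Tb against Control. *H19* lies at 1.28 and 1.17, whereas *Mrpl23* and *Cd81* lie between −0.16 and 0.047; the widest bars belong to the noncoding genes *Gm25416* and *Gm23297*, which were not called.

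Both genes that follow, near the imprinted growth genes, were named after their values were seen, in comparisons with 36.2% and 6.28% of all fitted genes called. *Ddc*, the aromatic amino acid decarboxylase gene that has an imprinted transcript in fetal heart and lies 32.4 kb from *Grb10*, rose in DOX against Control (0.67, SE 0.257, adjusted p = 0.0472 by edgeR) while *Grb10* was lower. That call of *Ddc* was lost in 11 of the 21 fits without a single library, at 0.56 to 0.81, and with library totals, with limma and without both DOX replicate 4 and Tb replicate 5. An unnamed gene 34.2 kb from *Mest*, ENSMUSG00000121179, fell in DOX against Control (−0.49, adjusted p = 0.0123) and in Tb against Control (−0.58, adjusted p = 0.0122) by edgeR.

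The other imprinted genes of the mouse were drawn from a list of 56, of which 55 were in the table and 30 were fitted. In DOX against Control 7 of the 30 rose and 3 fell, 10 in all beside 36.2% of all fitted genes. With library totals in place of TMM 6 rose and 6 fell, and by limma 5 rose and 6 fell. Their median log2 fold change was 0.067, beside 0.0024 over all. Genes of the *Snrpn* domain, the counterpart of the human Prader-Willi region, moved in both directions. *Snhg14*, the long noncoding host of its small nucleolar RNAs, rose from 37.9 ± 3.29 CPM (SD, n = 5) to 213 ± 83.2 (n = 5), a log2 fold change of 2.49 (SE 0.345, adjusted p = 2.33e-05 by edgeR). *Snrpn*, a spliceosome component of the same domain, rose by 1.01 (SE 0.204, adjusted p = 0.000702 by edgeR). *Ndn*, a growth suppressor of the same domain, fell from 7.46 ± 1.37 CPM to 2.5 ± 1.29 (−1.57, SE 0.29, adjusted p = 0.000325 by edgeR), and *Ube3a*, the ubiquitin ligase that overlaps *Snhg14* on the other strand, was at −0.033 (adjusted p = 0.784 by edgeR).

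*Peg10*, a gene derived from a retrotransposon and needed for the placenta, rose from 2.01 ± 0.409 to 9.45 ± 2.33 CPM (2.23, SE 0.43, adjusted p = 0.000493 by edgeR). Its Control mean was 0.306 FPKM, so it was carried over the minimum by its other groups. *Impact*, a regulator of the GCN2 stress kinase, rose by 0.79 (adjusted p = 0.000291), *Zrsr1*, a splicing factor gene within *Commd1*, by 0.65 (adjusted p = 0.000385) and the noncoding RNA *Peg13* by 0.52 (adjusted p = 0.00378), all by edgeR; that of *Peg13* was not called by limma. Besides *Ndn*, the genes that fell were the cation transporter gene *Slc22a3* (−0.99, adjusted p = 0.00122) and *Ppp1r9a* (−0.53, adjusted p = 0.0194) by edgeR, both named after their values were seen. The call of *Ppp1r9a* was lost without Control replicate 4 or DOX replicate 3, at values down to −0.38. *Dcn*, a matrix proteoglycan gene and the most abundant of the list at 138 FPKM, was at 0.30 (SE 0.131, adjusted p = 0.0779 by edgeR).

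In Tb-DOX against Tb, edgeR called 0 of the 30 other imprinted genes, beside 4.72% of all fitted genes. Of the 30 genes 5 had an unadjusted p under 0.05, and DESeq2 called 1. In Tb against Control edgeR called 0, beside 6.28% of all fitted genes, with 3 at an unadjusted p under 0.05, and DESeq2 called 0. The first count moved to 2 without Tb replicate 5. It moved to 1 without Tb-DOX replicate 4, with DESeq2 and with no minimum level. *Snhg14* lay at 120 CPM in Tb replicate 5 and at 27.1 to 60.1 CPM in the other Tb libraries. Without Tb replicate 5, *Snhg14* rose in Tb-DOX against Tb by 1.32 (adjusted p = 0.00225) and *Snrpn* by 0.67 (adjusted p = 0.0173) by edgeR, against 0.87 (adjusted p = 0.113) and 0.47 (adjusted p = 0.163) with it. In Tb-DOX against DOX 5 of the 30 fell and none rose, beside 17.5% of all fitted genes called in either direction. With library totals, which moved the median over all genes from −0.0077 to 0.18, 3 fell and 4 rose (*Cd81*, *Kcnq1*, *Ndn* and *Slc22a3*), as by limma. *Ndn* was at 0.715 (adjusted p = 0.0934) by edgeR with TMM, and was called without DOX replicate 1 or Tb replicate 5. The genes that fell with TMM were *Snhg14* (−1.19, adjusted p = 0.0164), *Impact* (−0.71, adjusted p = 0.00189), *Zrsr1* (−0.61, adjusted p = 0.00173), *Peg13* (−0.44, adjusted p = 0.0236) and *Dcn* (−0.40, adjusted p = 0.0376) by edgeR. The call of *Snhg14* was lost without DOX replicate 2 (−0.98 to −1.36 over the 21 fits), that of *Peg13* without DOX replicate 2 or Tb-DOX replicate 3 (−0.52 to −0.35), and that of *Dcn* without DOX replicates 2, 3 or 4 or Tb-DOX replicates 1, 3, 4 or 5 (−0.52 to −0.29). Those of *Peg13* and *Dcn* were also lost with library totals, with limma and at a minimum of 5 FPKM, and that of *Dcn* in the fit of those groups alone and with the replicate block.

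The DOX effect differed with tumor for 4 of the 30 by edgeR, lower with tumor for each of the 4, beside 8.94% of all fitted genes. *Ndn* went the other way, at 1.18 (adjusted p = 0.0593 by edgeR), and was called with library totals, by DESeq2 and by limma, which called only 1 lower (*Zrsr1*). The differences were −2.13 for *Peg10* (adjusted p = 0.0296), −1.63 for *Snhg14* (adjusted p = 0.0325), −0.86 for *Zrsr1* (adjusted p = 0.01) and −0.84 for *Impact* (adjusted p = 0.0186) by edgeR. Those of *Peg10* and *Snhg14* were larger with Tb replicate 5, which held the highest Tb levels of both. Without it they were −1.43 (adjusted p = 0.0201) and −1.18 (adjusted p = 0.0284) by edgeR, still called. The call of *Peg10* was lost without DOX replicate 3, and that of *Snhg14* without Control replicates 1, 2 or 4, DOX replicate 2, or Tb-DOX replicates 2, 3 or 5. Both were also lost with limma and with the replicate block, and the call of *Impact* with limma and with library totals.

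The insulin-like growth factor (IGF) axis, into which *Igf2*, *Igf2r* and *Grb10* feed, moved in both directions with DOX. Of 20 listed genes of ligands, receptors, binding proteins and adaptors, 13 were fitted, and 4 rose and 4 fell in DOX against Control, 8 in all beside 36.2% of all fitted genes, and 4 rose and 5 fell with library totals. The receptors and their adaptor rose: *Igf1r*, the receptor for IGF1 and IGF2, went from 41.4 ± 2.08 to 88.2 ± 29.6 CPM (SD, n = 5 each; 1.09, adjusted p = 0.000535), *Insr*, the insulin receptor, rose by 0.70 (adjusted p = 4.28e-05), and *Irs1*, the adaptor of both, went from 11.6 ± 2.04 to 43.9 ± 10.1 CPM (1.92, adjusted p = 8.21e-06) by edgeR. *Igfbp3*, a binding protein that sequesters IGFs and a p53 target, rose from 44.9 ± 7.89 to 231 ± 80.6 CPM (2.36, adjusted p = 0.000154 by edgeR). The ligand *Igf1* fell by 1.08 on the log2 scale (adjusted p = 0.0141), and *Ghr*, the growth hormone receptor, fell by 0.40 (adjusted p = 0.0173) by edgeR. *Igfbp7*, the most abundant gene of the list, fell from 73.3 ± 11.5 to 27.6 ± 6.68 CPM (−1.41, adjusted p = 4.06e-06), and *Igfbp6*, which prefers IGF2, fell by 0.64 (adjusted p = 0.0196) by edgeR. The call of *Ghr* was lost without DOX replicates 4 or 5, and that of *Igfbp6* without Control replicate 3 or DOX replicates 3 or 4.

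With tumor, 2 of these 13 genes were called with DOX, beside 4.72% of all fitted genes. *Igfbp7* fell from 84.5 ± 9.87 (n = 6) to 51.5 ± 10 CPM (n = 5; −0.72, adjusted p = 0.0105) and *Irs1* rose from 12.1 ± 2.77 to 21 ± 8.91 CPM (0.80, adjusted p = 0.0383) by edgeR. The rise of *Irs1* was not called in 6 of the 21 fits without a single library (without Tb replicates 1, 2, 3 or 4 or Tb-DOX replicates 2 or 5; 0.52 to 0.92), nor by limma or in the fit of those groups alone. *Igfbp3*, at 0.88 (adjusted p = 0.168 by edgeR), was called without Tb replicate 5 (1.35, adjusted p = 0.0104). In Tb against Control, where 6.28% of all fitted genes were called, the call was *Igfbp6*, which fell (−0.67, adjusted p = 0.0438 by edgeR), a call lost in 12 of the 21 fits, Tb replicate 5 among them (−0.70, adjusted p = 0.0518), and with library totals, limma, the fit of those groups alone and the replicate block. In Tb-DOX against DOX 4 were called, beside 17.5% of all fitted genes, *Igfbp7* (0.90) and *Igfbp4* (0.41) up and *Irs1* (−1.06) and *Igf1r* (−0.64) down, of which *Igf1r* and *Igfbp4* were lost in 6 and 15 of the 21 fits. That of *Igf1r* was also lost with library totals and with limma, and that of *Igfbp4* with median-ratio scaling, with no minimum level and with the replicate block. The differences between the DOX effects were called for 3 of the 13, beside 8.94% of all fitted genes, *Igf1r* (−1.14, adjusted p = 0.0244), *Irs1* (−1.12, adjusted p = 0.0329) and *Igfbp7* (0.70, adjusted p = 0.0488) by edgeR. The call of *Irs1* was lost in 8 of the 21 fits, and that of *Igfbp7* in 16 (0.57 to 0.79). All 3 calls were lost with the replicate block, and those of *Igf1r* and *Irs1* also with limma. Fibroblast marker RNA, given above, was lower in DOX than in Control, as were *Igfbp7*, *Igfbp6* and *Igf1*, and its part in them was not tested.

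**Figure D4:**
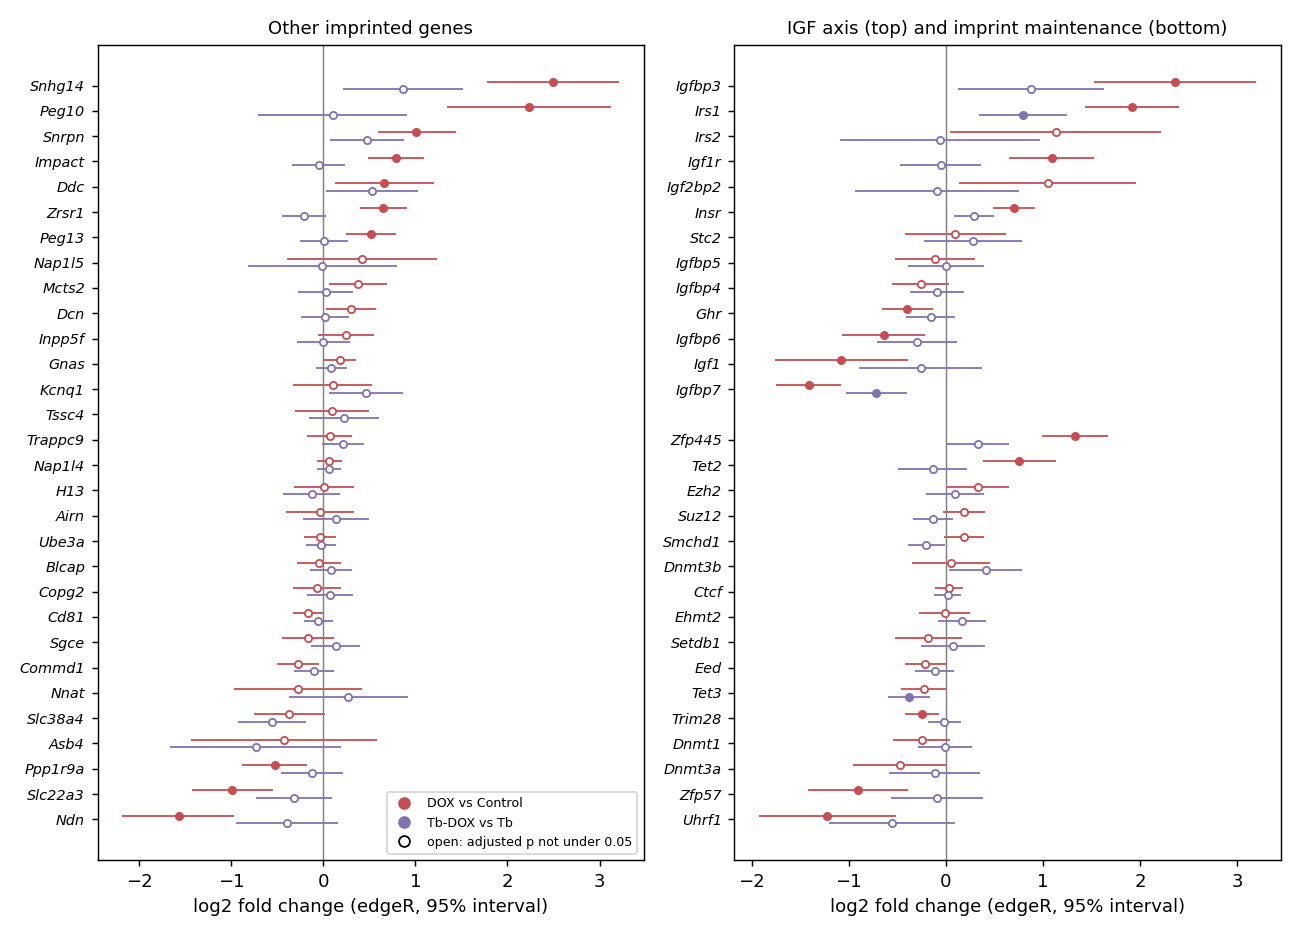
Fitted log2 fold changes (horizontal axis) with 95% intervals of the 30 other imprinted genes, the 13 IGF axis genes and the 16 imprint maintenance genes, for DOX against Control and Tb-DOX against Tb; filled points had an adjusted p under 0.05 in edgeR. Filled points are 10, 8 and 5 genes without tumor, where 36.2% of all fitted genes were called, and 0, 2 and 1 genes with tumor, where 4.72% were.

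Imprints are kept by DNA methyltransferases and by zinc finger proteins that bind methylated control regions and recruit TRIM28. Of 20 such genes and Polycomb or TET genes, 16 were fitted, and 2 rose and 3 fell in DOX against Control, 5 in all beside 36.2% of all fitted genes. With library totals 2 rose and 6 fell, and by limma 2 rose and 5 fell. *Zfp445*, a zinc finger gene that guards imprints and the most abundant of the list, rose from 200 ± 38.0 to 504 ± 84.7 CPM (1.33, SE 0.165, adjusted p = 9.91e-06 by edgeR). *Tet2*, which oxidises methylcytosine, rose by 0.76 (adjusted p = 0.00281 by edgeR). *Zfp57*, the other imprint-guarding zinc finger gene, fell from 3.58 ± 0.748 to 1.91 ± 0.472 CPM (−0.90, SE 0.25, adjusted p = 0.00766 by edgeR). *Uhrf1*, which brings DNMT1 to replicated DNA, fell from 3.03 ± 0.563 to 1.3 ± 0.317 CPM (−1.22, adjusted p = 0.00777), and *Trim28* fell by 0.24 (adjusted p = 0.0302) by edgeR. *Uhrf1* averaged 0.514 FPKM over all libraries, with 0.278 FPKM in DOX and 0.428 FPKM in Tb-DOX, so it reached the minimum through Control and Tb. *Zfp57*, at 0.46 FPKM in DOX, was likewise carried over the minimum by its other groups. The call of *Trim28* was lost without Control replicate 3 or DOX replicates 1 or 5, with no minimum level and in the fit of those groups alone. *Ctcf*, which binds the unmethylated control region between *H19* and *Igf2*, was at 0.034 (95% interval −0.109 to 0.176; adjusted p = 0.732 by edgeR).

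With tumor, 1 of the 16 was called with DOX, beside 4.72% of all fitted genes. It was *Tet3*, which fell (−0.38, adjusted p = 0.0421 by edgeR), a call lost in 10 of the 21 fits without a single library (−0.45 to −0.35), and with library totals, with limma, with no minimum level and in the fit of those groups alone. In Tb against Control edgeR called 0, beside 6.28% of all fitted genes, with 1 at an unadjusted p under 0.05, and DESeq2 called 0. For 2 of the 16, beside 8.94% of all fitted genes, the DOX effects differed: the effect with tumor minus that without was −1.0 for *Zfp445* (adjusted p = 0.0156) and −0.89 for *Tet2* (adjusted p = 0.0322) by edgeR. *Zfp445* held 194 ± 38.1 CPM (n = 6) in Tb and 243 ± 46.8 CPM (n = 5) in Tb-DOX, and its Tb-DOX level was below that in DOX (−1.05, adjusted p = 0.000144 by edgeR). Of the 16 genes 4 were called in Tb-DOX against DOX, beside 17.5% of all fitted genes, the others being *Zfp57*, which was higher (0.80), and *Tet2* (−0.52) and *Smchd1* (−0.32), which were lower, calls lost in 6, 18 and 5 of the 21 fits. With library totals or by limma 1 fell, *Zfp445*, and 4 rose (*Dnmt1*, *Eed*, *Trim28* and *Zfp57*). The call of *Zfp57* was lost with no minimum level, in the fit of those groups alone and with the replicate block. That of *Smchd1* was also lost with no minimum level. The *Tet2* difference was not called by limma, nor without Control replicates 3 or 4 or Tb-DOX replicates 1 or 4, and was −0.64 (adjusted p = 0.0103 by edgeR) without Tb replicate 5, in which *Tet2* stood at 84.5 CPM, against 33.1 to 45.8 CPM in the other Tb libraries.

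Because ZFP57 binds the letters TGCCGC when methylated, the 250 bases before the annotated starts of the imprinted growth genes were searched for them on both strands. RefSeq windows on GRCm38.p6 were found for 8 of the 10 genes, 15 windows in all, and none for *H19* or *Cdkn1c*. The motif was found in 4 of the 15 windows, of *Plagl1*, *Meg3* and *Mest* (2 windows that overlap), and in 8.68% of all 32851 windows of this length. These windows are printed because they carry the motif, shown in capitals in its reverse complement form GCGGCA, and each is on the plus strand: *Plagl1* at chr10:13090582-13090831, *Mest* at chr6:30737800-30738049 and *Meg3* at chr12:109540746-109540995. They hold 19, 14 and 10 CpG dinucleotides, beside a median of 6 over all windows and a 90th percentile of 25.
Plagl1: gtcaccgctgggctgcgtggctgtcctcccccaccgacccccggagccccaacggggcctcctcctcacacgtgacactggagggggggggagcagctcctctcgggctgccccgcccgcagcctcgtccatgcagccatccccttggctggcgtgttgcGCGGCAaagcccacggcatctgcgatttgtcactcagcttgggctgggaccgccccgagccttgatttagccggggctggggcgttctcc
Mest: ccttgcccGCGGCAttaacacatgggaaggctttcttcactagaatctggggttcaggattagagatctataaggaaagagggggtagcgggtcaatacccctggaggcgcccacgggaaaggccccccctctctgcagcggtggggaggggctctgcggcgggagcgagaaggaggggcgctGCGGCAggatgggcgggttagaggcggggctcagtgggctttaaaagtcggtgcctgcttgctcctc
Meg3: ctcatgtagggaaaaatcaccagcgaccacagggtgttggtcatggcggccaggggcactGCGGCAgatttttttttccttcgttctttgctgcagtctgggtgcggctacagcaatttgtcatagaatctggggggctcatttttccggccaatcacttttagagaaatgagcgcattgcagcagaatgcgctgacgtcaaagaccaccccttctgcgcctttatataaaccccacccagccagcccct
The motif stood once in the *Plagl1* and *Meg3* windows and 2 times in the *Mest* window. Of these genes *Plagl1* was higher with DOX and *Mest* and *Meg3* were lower, so the genes with the motif had no shared direction. A match describes letters in the window only.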

How the data were processed

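Heart RNA was sequenced from 5 Control, 5 DOX, 6 Tb and 5 Tb-DOX libraries, grouped by the labels. The authors selected mRNA with oligo(dT) beads and deposited 1 table of whole-number counts per gene and library. The authors also deposited FPKM values, which equal the count per kb of the listed exonic gene length scaled by the library total (within 0.005). The submitters' processing notes name cutadapt, FastQC, HISAT2, HTSeq 0.6.1, DESeq2 1.34.0 and GRCm39. The strand setting of counting is not given in the sources used here.

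Counts were fitted with edgeR 4.0.16 in R 4.3.3 (TMM, quasi-likelihood F test, 1 coefficient per group, all 21 libraries) for the 13990 genes whose FPKM averaged 0.5 or more, with Benjamini-Hochberg adjustment over them. Each SE is the absolute fold change on the log2 scale divided by the square root of F. The imprinted growth genes, the other lists, the markers and the alternatives were chosen with earlier results of these data known, so no p-value is given for the imprinted growth genes. Genes named were these 10, of each list the most abundant gene and up to 4 called genes per comparison with the largest change, and the nearest fitted neighbours. Genes named beyond that rule (among them *Insr*, *Igf1*, *Ghr*, *Slc22a3*, *Ppp1r9a*, *Trim28*, *Ctcf*, *Dusp8*, *Lsp1* and the overlapping *Ube3a*, *Airn* and *Copg2*), and some named in a further comparison, were picked with their values known. DESeq2 1.42.0 and limma 3.58.1 (pseudocount 0.1) were alternatives. The fit was checked on simulated data. RefSeq sequences came from GRCm38.p6. Some neighbouring genes are not reported here.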

Additional observations from a re-analysis of the deposited data

Results flagged for a closer look

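In 120 sets of values, each a gene in a group of libraries, 15 single values stood far from the others of their group by Dixon's test. That test flags about 1 set in 20 by chance. The sets share libraries, and several of these values came from the same library, so that rate is only a rough guide. It does not hold for *Dlk1*, where most libraries are at 0 and a single count stands apart. Without *Dlk1*, 11 values stood apart in 116 sets. Among the imprinted growth genes, *Igf2* stood at 0.139 CPM in Control replicate 2, against 0.716 to 0.798 in the other Control libraries, and rested on 2 counts. *Cdkn1c* stood at 8.63 CPM in Tb-DOX replicate 2, against 11.0 to 11.7 in the other Tb-DOX libraries. *Peg3* stood at 68.2 CPM in Tb replicate 6, against 20.4 to 36.8 in the other Tb libraries. *Dlk1* stood at 0.0651 CPM in Control replicate 5, 0.0674 in DOX replicate 1, 0.198 in Tb replicate 2 and 0.0596 in Tb-DOX replicate 5, values that rest on 1, 1, 3 and 1 counts.

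Of the related genes that were examined, those named by the rule for each list, 4 stood apart in Tb replicate 5, the library with the lowest correlation with its group: *Snhg14* at 120 CPM (others 27.1 to 60.1), *Peg10* at 11.5 CPM (others 1.66 to 3.32), *Tet2* at 84.5 CPM (others 33.1 to 45.8) and *Dcn* at 931 CPM (others 646 to 709). In Control, *Igf1r* stood at 45 CPM in replicate 5 (others 40.0 to 41.3), *Igfbp7* at 53.3 CPM in replicate 3 (others 75.0 to 82.6), *Tet2* at 28.4 CPM in replicate 3 (others 37.2 to 40.7) and *Zfp57* at 2.25 CPM in replicate 1 (others 3.83 to 3.98).

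The DOX effect with tumor minus that without was as follows on the log2 scale. Of the imprinted growth genes, whose values are a description, it was −1.43 for *H19*, −1.56 for *Peg3*, −1.67 for *Plagl1* and 0.795 for *Grb10*. It was called by edgeR for the related genes that follow. Of the other imprinted genes it was −2.13 for *Peg10*, −1.63 for *Snhg14*, −0.84 for *Impact* and −0.862 for *Zrsr1*. Of the IGF axis it was −1.14 for *Igf1r*, −1.12 for *Irs1* and 0.696 for *Igfbp7*, and of the genes of imprint maintenance −1.0 for *Zfp445* and −0.891 for *Tet2*.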

How the results depend on the processing

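No called value of the 8 fitted growth genes changed sign under any alternative. Of 1172 values, 3 moved by more than the SD of single libraries within groups. Leaving out 1 library can hardly move a fitted value that far, so this count says little of stability. Calls did change, in 14 of 21 such fits for *Cdkn1c* in DOX against Control and in 13 for the *Peg3* difference. Counts of calls below are given in the order all genes, the imprinted growth genes and the other imprinted genes where all 3 moved by over 1.5 times, and otherwise by name. A minimum mean of 5 FPKM gave 2496, 3 and 6 calls in DOX against Control, 948, 1 and 2 in Tb-DOX against DOX, 334 over all genes in Tb against Control, and 551 over all genes and 2 other imprinted genes for the difference between the DOX effects. Fewer genes are fitted at that minimum. A minimum absolute log2 fold change of 1 gave 1392, 4 and 4 in DOX against Control, 786, 1 and 1 in Tb-DOX against DOX, 155 and 504 over all genes in Tb-DOX against Tb and Tb against Control, and 544 over all genes and 2 other imprinted genes for the difference.

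In Tb-DOX against Tb, DESeq2 gave 1074, 1 and 1, and 2036 over all genes for the difference. Limma on log2(FPKM + 0.1) gave 420 over all genes in Tb-DOX against Tb, 1 growth gene in Tb-DOX against DOX and 2 other imprinted genes for the difference. Fits of only the 2 groups compared gave 351 over all genes and 1 growth gene in Tb-DOX against Tb, and 1 growth gene in Tb-DOX against DOX, as did library totals in place of TMM. With no minimum level, 1 other imprinted gene was called in Tb-DOX against Tb. With the replicate number as a replicate block, 2 growth genes were called in Tb-DOX against Tb, 469 genes in Tb against Control, and 506 genes, 2 growth genes and 2 other imprinted genes for the difference. *H19* in Tb against Control (1.17 on the log2 scale without the block) was not called with it. Residuals of same-numbered libraries correlated at −0.228 to 0.204 over 30 pairs, so the numbers were not taken to pair the libraries. Without both DOX replicate 4 and Tb replicate 5, an alternative added after seeing the data, Tb-DOX against Tb gave 1005, 1 and 2. The cause of these shifts was not tested.

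Leaving out each replicate in turn gave 260 to 938 genes, 0 to 1 growth genes and 0 to 2 other imprinted genes in Tb-DOX against Tb. It gave 1 to 2 growth genes and 2 to 7 other imprinted genes in Tb-DOX against DOX, and 657 to 1721 genes and 2 to 5 growth genes for the difference. With library totals in place of TMM, the share of called genes that were higher went from 54.5% to 88.7% in Tb-DOX against DOX, from 44.1% to 76.5% for the difference and from 79.5% to 88.4% in Tb against Control. The depth leaves *Igf2* and *Dlk1* at or near the limit of counting.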

Other observations

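Over the 21 libraries, the genes whose log2 CPM went most closely with that of *H19* were *Cers5* (Pearson's r = 0.743), a ceramide synthase gene, *Unc119b* (0.73), *Cdc25b* (0.727), a cell cycle phosphatase gene, *Gm37963* (0.72), *Cnn2* (0.717), a calponin gene, ENSMUSG00000120905 (0.716), *Ctnnal1* (0.715) and *Pirt* (0.715). After the group means were subtracted, they were *4833403J16Rik* (0.808), *Ppm1m* (0.79), *Acox3* (0.79), a peroxisomal oxidase gene, *Faap20* (0.776), *Shf* (0.757), *Cd248* (0.736), a pericyte and fibroblast surface protein gene, *Tsacc* (0.732) and *Ctps2* (0.727), so no gene was in both lists. The points share libraries and depth, each list holds the highest values over all fitted genes, and no test was made.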
